A study of Mus musculus with 6 samples.

Results

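Translation initiation factors, elongation factors and aminoacyl-tRNA synthetases were represented by 89 genes of the 18193 named on 2 Affymetrix array types hybridized with RNA of DR4 mouse embryonic fibroblasts. Members were chosen by gene symbol alone and not by signal: symbols beginning with Eif1 to Eif6, Eef1 or Eef2, those made of a letter and ars with or without a final 1 or 2, and Eprs. The sex-linked Eif2s3x and Eif2s3y were left out. MOE430A carried 157 member probe sets of 22626, for 74 genes, and MOE430B carried 59 of 22511, for 37 genes. A probe set is a group of short oligonucleotides that reports on a transcript. A further 9 probe sets whose annotation joined such a symbol to another gene were not counted as members.

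DR4 cells serve as a feeder layer for embryonic stem cells, and their RNA was the control for stem cells of the lines J1, R1 and V6.5. All 6 samples came from fibroblasts of day 15 embryos. They were kept on 0.1% gelatin in D-MEM that held LIF and 15% serum, under 5% CO2 at 37 C. Replicate 1 was prepared from 12x10e6 cells at an RNA concentration of 2.4 ug/ul, and replicates 2 and 3 from 3x10e6 cells each at 3.0 ug/ul. Each replicate was hybridized once to each array type. The labels give no genotype beyond the name DR4, no treatment of the feeder cells, and nothing that says the replicates were separate cultures, so the spread between them may be technical.

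Protein synthesis starts when eIF2 brings the initiator tRNA to the small ribosomal subunit, eIF3 holds that complex together, and the eIF4 factors recruit it to the capped messenger RNA. Elongation factors then deliver aminoacyl-tRNAs and move the ribosome along the message. Aminoacyl-tRNA synthetases supply both steps by joining each amino acid to its tRNA, with 1 set of enzymes for the cytosol and another, encoded in the nucleus, for mitochondria. In fibroblasts, growth signals act on this machinery through the 4E-binding proteins and stress acts on it through the eIF2 kinases.

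Signals are MAS5 intensities on a linear scale. The trimmed mean of every array lay between 1500.2 and 1500.5, which shows a common scaling. The array median, taken here as a floor, lay between 685 and 734 on MOE430A and between 849 and 917 on MOE430B. It is a relative mark that puts 50% of each array below it. The signal of a probe set depends on its oligonucleotides, so signals of different genes are not ranked against each other as transcript levels, and MOE430A values are not set against MOE430B values. In these bulk samples fewer cells of a type and less RNA per cell cannot be told apart. All 8 fibroblast marker genes measured, among them Col1a1, Vim and Sparc, lay above the floor, and 0 of 4 pluripotent stem cell markers did. The counts were 1 of 4 for macrophage markers (Csf1r), 1 of 3 for epithelium and 1 of 3 for endothelium (Kdr).

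Most of the translation machinery lay above the floor. On MOE430A 118 of 157 member probe sets (75.2%) were above the median of their array on all 3 arrays, beside 42.4% of all probe sets. On MOE430B the count was 37 of 59, beside 37.2%. Counted by gene, 79 of 89 members (88.8%) had at least 1 such probe set, beside 54.7% of all 18193 named genes. The 10 genes without one were Eif2ak4, Eif4a3, Eef1a2, Eef2kmt, Aars2, Ears2, Hars2, Iars2, Mars2 and Tars2, so 6 of the 10 were mitochondrial synthetases. A signal under the floor does not show that a gene was silent.

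**Figure D1:**
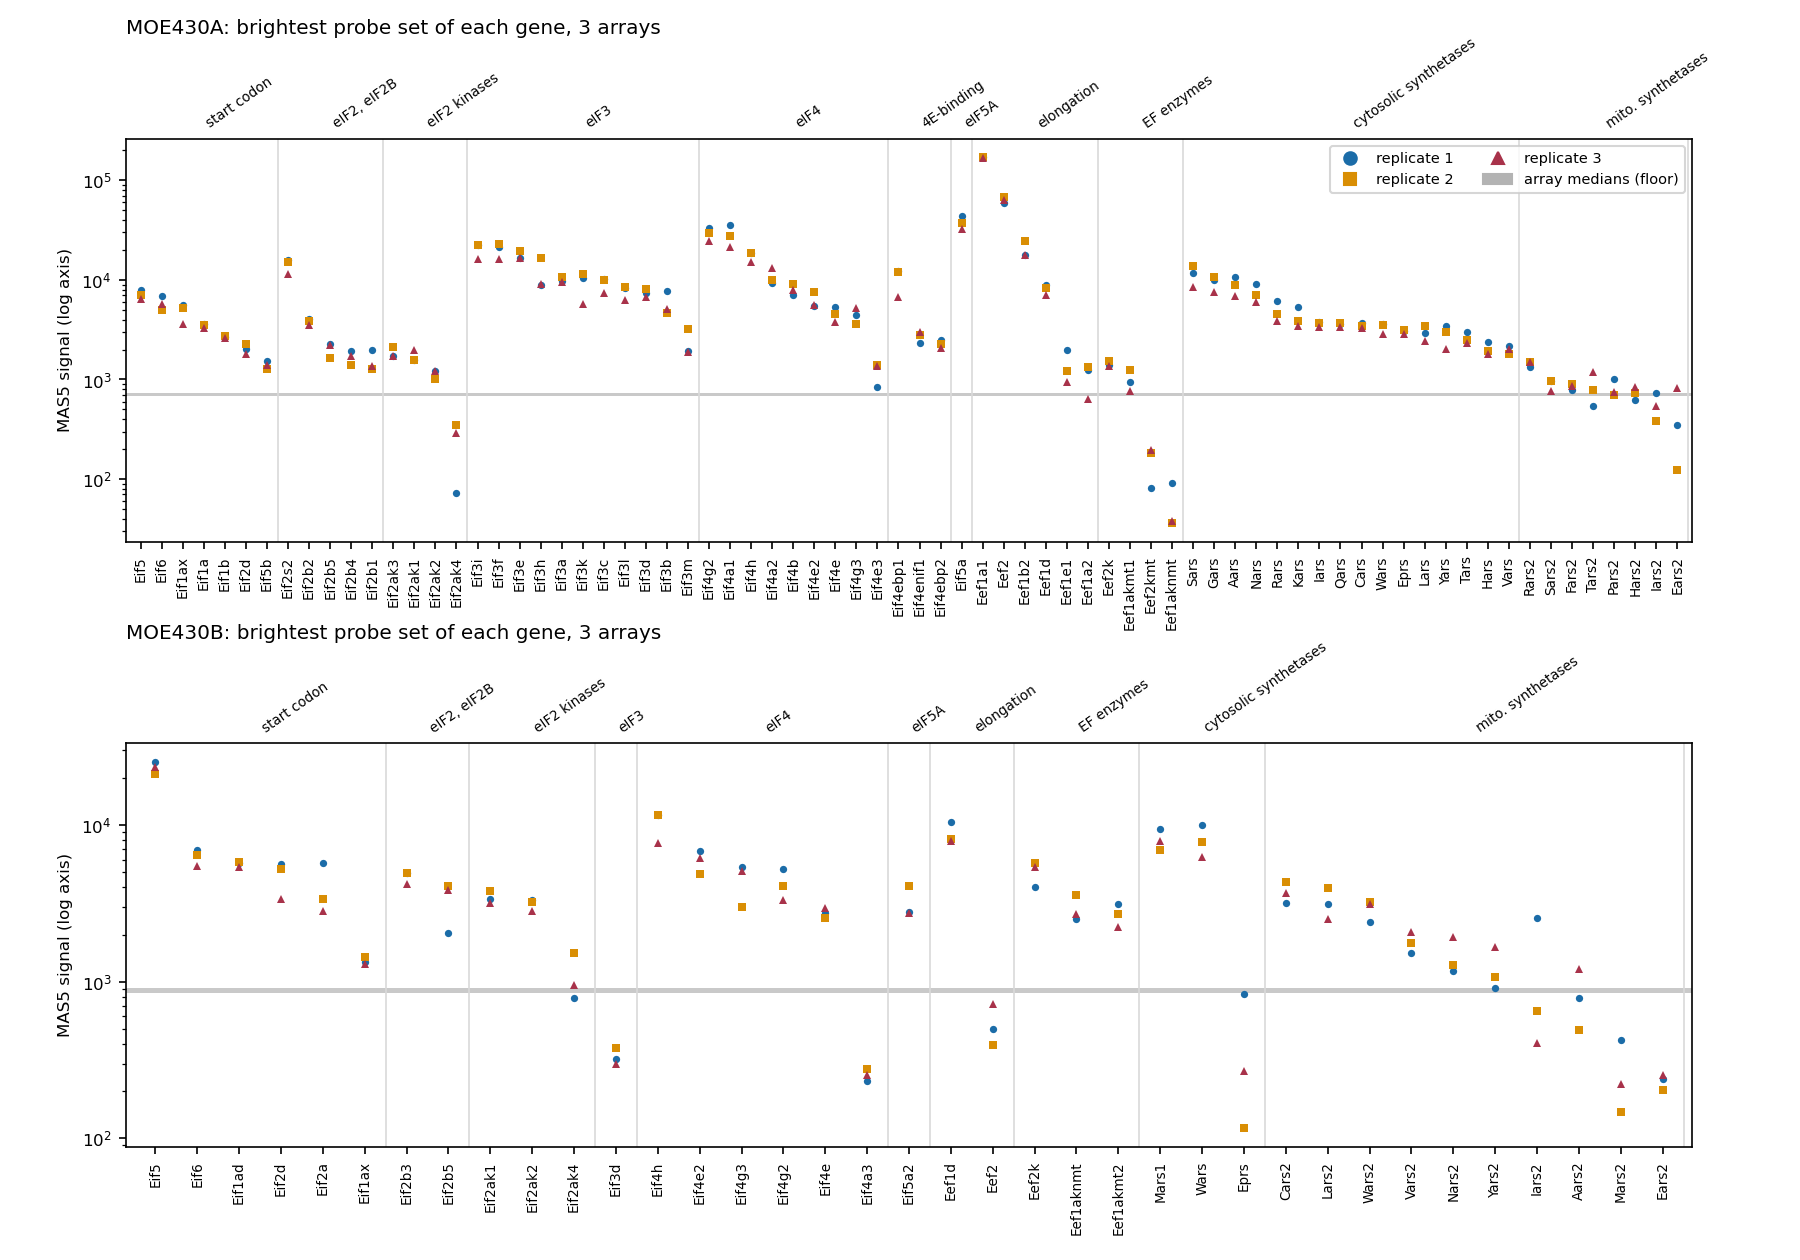
MAS5 signal (log axis) of the brightest probe set of each member gene on MOE430A (upper panel) and MOE430B (lower panel), with 1 point per replicate and the range of the 3 array medians as a grey band. All cytosolic synthetases on MOE430A lie above the band, and the mitochondrial synthetases of that panel lie near or below it, apart from Rars2.

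Among the factors that select the start codon and join the subunits, 9 of 9 genes were above the floor. Eif5, the GTPase activator that acts when the start codon is found, gave 7938, 6979.9 and 6419 on MOE430A in replicates 1, 2 and 3. Eif6, which keeps the large subunit from joining too early, gave 6849, 4952 and 5691. Eif1ax, which encodes the start codon scanning factor eIF1A, gave 5551, 5232 and 3630.0, lowest in replicate 3. The eIF1 paralog Eif1b was among the steadiest members at 2657, 2762 and 2600.2. Its SD was 0.04 on the log2 scale, beside 0.33 for that Eif1ax probe set. The Eif1ax probe set on MOE430B was also steady, with an SD of 0.08. On MOE430B, Eif1ad gave 5702, 5801 and 5427 and Eif2a, an alternative initiator tRNA carrier unrelated to the eIF2 subunits, gave 5718, 3356 and 2844. Replicate 1 was the highest for that Eif2a probe set, whereas a second one on the same array type ran the other way at 707, 1016 and 991.

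All 6 measured genes of eIF2 and of eIF2B, the exchange factor that reloads eIF2 with GTP, were above the floor. Eif2s2, the beta subunit of eIF2, gave 15939.9, 15072 and 11399, lowest in replicate 3. The eIF2B subunits Eif2b2 and Eif2b5 gave 4092, 3892 and 3561 and 2287, 1654 and 2200.2 on MOE430A. Eif2b1 gave 1981, 1281 and 1358, highest in replicate 1 with the other replicates close to each other. Eif2b3, measured on MOE430B alone, gave 4929.7, 4913 and 4196. The values of a further Eif2b5 probe set on MOE430B were 2049, 4103 and 3852, so there replicate 1 was the lowest.

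Of the 4 eIF2 kinases, which halt initiation under stress by phosphorylating eIF2, 3 were above the floor. Eif2ak3, the kinase of the endoplasmic reticulum known as PERK, gave 1713, 2105 and 1731. Eif2ak1, the heme-regulated kinase, gave 1557, 1562 and 1987. Eif2ak2, the kinase PKR that senses double-stranded RNA, gave 1209.7, 1012 and 1203. Replicate 1 was the lowest for Eif2ak3. Further probe sets of the other two ran against the first, at 1773, 1479.9 and 1700.1 for Eif2ak1 and 783, 1125 and 1094 for Eif2ak2, so neither kinase gave 1 direction. Eif2ak4, the amino acid sensor GCN2, had a brightest MOE430A probe set at 72.1, 345 and 293, below the floor throughout, and on MOE430B gave 787, 1526 and 957, above the floor in replicates 2 and 3 only.

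All 11 measured subunits of eIF3, the scaffold of the initiation complex, were above the floor. Eif3i gave 22367, 22602 and 16349, and Eif3f gave 21245, 23231 and 16366. Replicates 1 and 2 lay close together for both, with replicate 3 below them. The brightest Eif3e probe set was tighter at 16593, 19723 and 16502, an SD of 0.15 on the log2 scale. Its other probe sets above the floor had SDs of 0.25 and 0.41. Eif3h stood out by its replicate 2 value, 8932, 16437 and 9101, and Eif3m was also highest in replicate 2 at 1923, 3252 and 1888. Eif3k had among the largest replicate spreads on MOE430A at 10345, 11362 and 5716, with replicate 3 apart below the other two. Replicate 3 was the lowest of the 3 arrays for 13 of 19 tested eIF3 probe sets.

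Of the 10 measured eIF4 genes 9 were above the floor, Eif4a3 being the exception. Eif4a1, the helicase that unwinds the messenger RNA leader, gave 35782, 27742 and 21636, highest in replicate 1 and lowest in replicate 3. Its paralog Eif4a2 gave 9323, 10088 and 13174, lowest in replicate 1 and highest in replicate 3. Eif4g2, a scaffold that initiates without binding the cap-binding protein, gave 33361, 29597 and 24761, and Eif4h, which assists the helicase, gave 18729, 18617 and 15128. Eif4e, the cap-binding protein, gave 5333, 4565 and 3748 with its brightest probe set, highest in replicate 1. Another on MOE430A gave 1553, 1712 and 1515, highest in replicate 2. The Eif4e probe set on MOE430B gave 2760, 2568 and 2934, highest in replicate 3. Eif4e3, a cap-binding relative, gave 837, 1389 and 1364 with its brighter probe set and 495, 1179 and 1049 with the other. Replicate 1 was the lowest with both. The Eif4a3 probe set counted here lay at 231, 277 and 252 on MOE430B. Another, on MOE430A, whose annotation joins Eif4a3 to Gm5576 and which was therefore not a member, gave 5614, 4001 and 3497, above the floor on each array.

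The 3 genes grouped as 4E-binding proteins were all above the floor. Eif4ebp1, the repressor released from eIF4E when growth signals phosphorylate it, gave 12292, 12009 and 6787, with replicate 3 apart from the other two. Eif4ebp2, its paralog, gave 2515, 2261 and 2069 with its brightest probe set, in which replicate 1 was the highest. With a second probe set it gave 975, 1523 and 2018, in which replicate 1 was the lowest. Eif4enif1, the transporter that carries eIF4E into the nucleus, gave 2342, 2819 and 3018.

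Eif5a, the hypusine-carrying factor that helps the ribosome through difficult sequences, gave 43957, 37072 and 32178 on MOE430A, and its paralog Eif5a2 gave 2804, 4058 and 2747 on MOE430B. The elongation factor Eef1a1, which carries aminoacyl-tRNA to the ribosome, gave 172174, 170954 and 167055. These values had the smallest replicate spread of the members on MOE430A, an SD of 0.02 on the log2 scale. Eef1a2, the paralog known from neurons and muscle, gave 1258, 1324 and 638 and was below the floor in replicate 3. Eef2, the translocation factor, gave 58775, 68772 and 63020.5, and Eef1b2, a subunit of the exchange factor for eEF1A, gave 17931, 24678 and 17871. Replicate 2 was the highest for both.

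Eef1d, another exchange factor subunit, gave 8968, 8349 and 7052. Eef1e1, named for the elongation complex but known as an auxiliary protein of the multi-synthetase complex, gave 1976, 1207 and 952, the largest positive difference of replicate 1 among tested members on MOE430A. Of the 5 enzymes that modify elongation factors, 4 were above the floor. Eef2k, the kinase that inhibits eEF2, gave 1399, 1516 and 1358, a narrow range. The eEF1A methyltransferases Eef1akmt2 and Eef1akmt1 gave 3149.9, 2722 and 2246 on MOE430B and 952, 1246 and 767 on MOE430A. Eef2kmt, a methyltransferase of eEF2, stayed below the floor at 81.9, 180.5 and 197.

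All 17 measured cytosolic synthetases were above the floor. Sars, which charges serine tRNA, gave 11829, 13846 and 8407. Gars, for glycine, gave 10059, 10685 and 7505, and Aars, for alanine, gave 10800.3, 8907 and 6882. Replicate 3 was the lowest for each of these enzymes, while the highest was replicate 2 for Sars and Gars and replicate 1 for Aars. A second Aars probe set, also above the floor, gave 4031, 4544 and 4463, lowest in replicate 1. Nars, for asparagine, gave 9195, 7078 and 5973. Rars, for arginine, gave 6186, 4513 and 3913, and Kars, for lysine, gave 5325, 3834 and 3448. These 3 were highest in replicate 1 and lowest in replicate 3, as was Yars, for tyrosine, at 3426, 2980.3 and 2045. Gars and Kars are known to serve mitochondria as well as the cytosol. Mars1, for methionine, was measured on MOE430B and gave 9478, 6885 and 7928. Qars, for glutamine, gave 3578, 3687 and 3358 with its brightest probe set, an SD of 0.07 on the log2 scale, but SDs of 0.39 and 0.46 with the other two above the floor. Eprs, the fused enzyme for glutamate and proline, gave 3059, 3162 and 2876 with an SD of 0.07, but SDs of 0.40 and 0.54 with its others. A Hars probe set, for histidine, was also among the most variable at 2443, 1824 and 1185. Spread thus differed more between probe sets of these genes than a single probe set shows.

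**Figure D2:**
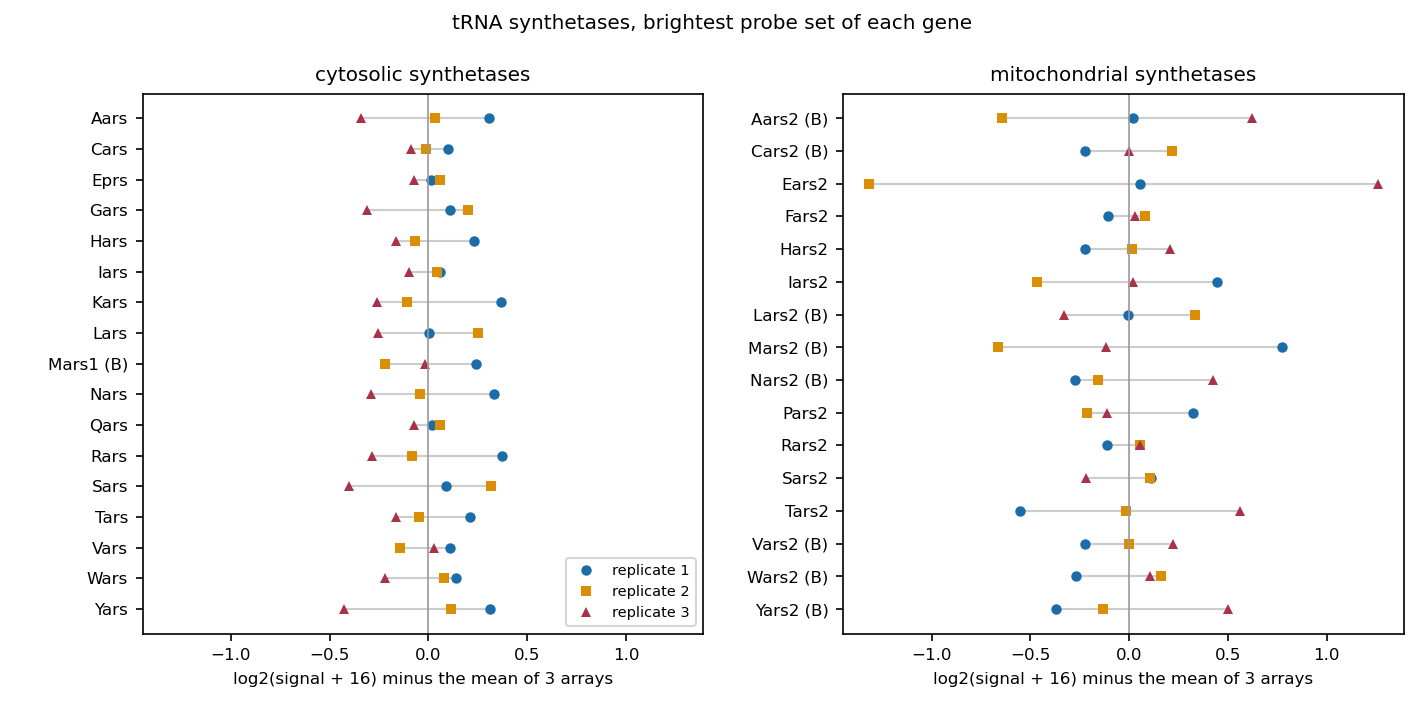
Each replicate of each synthetase as log2(signal + 16) minus the mean of its 3 arrays (horizontal axis), for the brightest probe set of each gene, with (B) marking genes read on MOE430B. Among the 16 cytosolic enzymes read on MOE430A, replicate 3 is the lowest for 15, all but Vars. For mitochondrial enzymes that passed the filter on low signals, replicate 1 is the lowest for 4 of 6 on MOE430A and 5 of 6 on MOE430B. Aars2, Ears2, Iars2 and Mars2, plotted but not tested, are lowest in replicate 2.

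Of the 16 mitochondrial synthetases, 10 were above the floor. On MOE430A, Rars2 gave 1337, 1504 and 1506, Sars2 gave 958, 955 and 761 and Fars2 gave 788, 900.0 and 868, all above the floor on each array. Pars2 gave 1013, 692 and 743, above it by a small margin in replicates 2 and 3. Tars2 at 538, 788 and 1184 and Hars2 at 615, 729 and 836 were above the floor in replicates 2 and 3 only. On MOE430B, Cars2 gave 3165, 4302 and 3694, Lars2 gave 3130.2, 3976 and 2503 and Wars2 gave 2403, 3249 and 3117. Vars2 gave 1516, 1776 and 2072. Aars2 at 785, 491 and 1203 and Iars2 at 2546, 646 and 403 each passed the floor on 1 array, replicate 3 for Aars2 and replicate 1 for Iars2. Mars2 at 424, 146 and 221 and Ears2 at 239, 204 and 255 stayed below the floor there. The brightest MOE430A probe sets gave 346, 124 and 818 for Ears2 and 735, 384 and 544 for Iars2. Each passed the floor on 1 array, replicate 3 for Ears2 and replicate 1 for Iars2.

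The contrast between the cytosolic and mitochondrial sets held in direction under each floor tried. Above a fixed signal of 200 were 17 of 17 cytosolic and 15 of 16 mitochondrial enzymes, beside 79.7% of all genes. With the 75th percentile of each array as the floor the counts were 16 of 17 and 3 of 16, beside 30.4%. Above the highest tryptophan control probe set of each array, which reports a bacterial transcript, they were 17 of 17 and 5 of 16, beside 44.0%. That control lay between 614 and 786 on MOE430A, near the median. On MOE430B it lay between 1989 and 2348, near the 75th percentile, so this floor was stricter there. Probe sets on MOE430A measured 16 of the 17 cytosolic enzymes but 8 of the 16 mitochondrial ones. On MOE430A alone, with the median as the floor, the counts were 16 of 16 and 4 of 8, beside 50% of all genes there. The mitochondrial share was thus above that of all genes at a signal of 200 and at the median of both types, level with it on MOE430A alone and below it at the other floors. No test was made of the difference, and transcript level and probe set sensitivity cannot be told apart here.

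Promoter sequence was taken from RefSeq (GRCm38.p6), 250 bases before to 50 after each annotated start, and 69 of the 89 member genes matched. The promoters were searched on both strands for 4 motifs: TGATGNAA, the amino acid response element that the stress factor ATF4 binds with a C/EBP partner; CACGTG, the E-box bound by MYC and related factors; CCGGAAGT, bound by ETS factors; and TGACGTCA, bound by CREB. No 2 different motifs overlapped in the member promoters. Counts are of genes with a match in any of their annotated promoters. TGATGNAA was found in 5 of 10 cytosolic synthetase genes with a promoter (Aars, Gars, Iars, Tars and Yars) and in 0 of 14 mitochondrial ones. It was found in 6 of 69 member genes in all, Eef2k being the other, beside 4.51% of 27025 genes with a promoter. A site in each of the 5 synthetase promoters is shown because this motif is the most unevenly placed between the synthetase sets. The Aars promoter holds a second site, beginning at base 10 after the start, which is not shown. The windows are given with the motif in capitals on whichever strand it lies and each window written 5′ to 3′ along the gene:
Aars, chr8:111033704-111033763, plus strand: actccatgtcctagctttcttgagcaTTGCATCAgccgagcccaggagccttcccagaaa
Gars, chr6:55037941-55038000, plus strand: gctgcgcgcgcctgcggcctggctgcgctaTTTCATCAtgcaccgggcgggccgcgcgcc
Iars, chr13:49682085-49682144, plus strand: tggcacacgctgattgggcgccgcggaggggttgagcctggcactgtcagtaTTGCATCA
Tars, chr15:11399659-11399718, minus strand: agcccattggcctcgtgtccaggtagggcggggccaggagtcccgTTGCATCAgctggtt
Yars, chr4:129189854-129189913, plus strand: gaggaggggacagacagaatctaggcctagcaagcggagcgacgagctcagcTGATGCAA

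CACGTG was found in 16 of 69 member genes (23.2%), beside 8.09% of genes, and CCGGAAGT in 11 of 69 (15.9%), beside 4.31%. TGACGTCA was found in 1 of 69, beside 2.03%. The Eif4e promoter holds a second CACGTG, beginning at base -64 from the start, besides the one shown at -228. Eif5a has another, at -178 in a different annotated promoter. Neither of these is shown. E-box windows are shown for Eif4e, Eif4a1 and Eif5a, the cap-binding protein, the helicase and the hypusine factor described above, with the motif in capitals:
Eif4e, chr3:138527018-138527077, plus strand: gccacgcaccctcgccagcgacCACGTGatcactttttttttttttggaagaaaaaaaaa
Eif4a1, chr11:69672580-69672639, minus strand: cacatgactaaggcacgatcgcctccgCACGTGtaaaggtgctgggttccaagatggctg
Eif5a, chr11:69921428-69921487, minus strand: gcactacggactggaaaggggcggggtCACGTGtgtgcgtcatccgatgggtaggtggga

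A match is a description of the letters in the window. None of these arrays measured binding, and the absence of a match says nothing about a factor. The promoters of members and of all genes were not matched for base composition.

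The replicates differ in the labels by cell number and RNA concentration, so replicate 1 was compared with the mean of replicates 2 and 3 by limma, fitted over all probe sets whose mean log2 signal lay above the mean floor, with Benjamini-Hochberg adjustment and a threshold of 0.05. On MOE430A 0 of 125 tested member probe sets passed, beside 0.705% of all 11070 (78 in all, 0.217% higher and 0.488% lower in replicate 1). At an unadjusted p under 0.05 there were 9 of 125 members, beside 8.12%. On MOE430B 0 of 39 passed, beside 0% of 10602, and 0 of 39 were under 0.05 unadjusted, beside 7.23%. The lowest adjusted p of a member by limma was 0.196 on MOE430A, for Eif4e3, and 0.698 on MOE430B, for Eif2b5. The limma trend option also passed 0 members on each type. With 1 array against 2 1 residual degree of freedom remained, and replicate 1 was assumed to vary like the others.

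None of the members with the largest differences passed. On MOE430A the largest positive log2 differences of replicate 1 were 0.87 ± 0.37 (SE) for Eef1e1, 0.85 for an Eif3c probe set at 6840.2, 3912 and 3681, and 0.82 for an Eprs probe set at 1672, 786 and 1120.3. Next came 0.78 for an Eif5a probe set at 25541, 14073 and 15751 and 0.77 for an Eif4a1 probe set at 15496, 10741 and 7678. In each of these, replicate 1 lay above both others. The largest negative differences were -1.14 ± 0.37 (SE) for Eif4e3, -0.90 for Eef1akmt1, a methyltransferase of eEF1A, at 508, 1062 and 874, and -0.84 for Eif4ebp2. Tars2 followed at -0.83 and the second Eif4e3 probe set at -0.71. That Eef1akmt1 probe set was below the floor in replicate 1. A brighter Eef1akmt1 probe set gave -0.04 and a dimmer one 0.28, so the gene did not give 1 direction. The SEs given here are those of limma after eBayes, which draws the variance of each probe set toward that of all tested ones. They are therefore not the measured error of a single probe set.

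On MOE430B the largest positive differences were 0.88 for Eif2a, 0.58 for an Eif5a2 probe set at 1922, 1173 and 1399, 0.57 for a Cars2 probe set at 2011, 1441 and 1270.3, 0.51 for Eif4g2 at 5235, 4063 and 3319 and 0.51 for Wars at 9974, 7848 and 6272. Negative ones were -0.95 for Eif2b5, -0.76 for an Eif4g3 probe set at 1344, 2605 and 2007, -0.61 for Eif2ak4, -0.55 for Yars2 at 910.4, 1076 and 1674 and -0.50 for the second Eif2a probe set. Positive and negative differences thus occurred in the same gene, and brighter probe sets of Cars2 and Eif5a2 gave -0.33 and -0.25.

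Although no single member passed, the tested members on MOE430A leaned to one side. Their median log2 difference of replicate 1 was 0.16, beside -0.01 over all tested probe sets, and 86 of 125 were higher in replicate 1, beside 48.9%. The gap was to replicate 3 more than to replicate 2. Replicate 1 minus replicate 2 had a median of 0.01, with 67 of 125 higher beside 49.4%. Replicate 1 minus replicate 3 had a median of 0.28, with 94 of 125 higher beside 48.1%, and replicate 2 minus replicate 3 had 0.17, with 89 of 125 higher beside 49.2%. Replicate 3 was the lowest array for 73 of 125 (58.4%), beside 33.6%, and the highest for 15, beside 36.3%. Replicate 1 was the lowest for 25, beside 35.7%, and replicate 2 for 27, beside 30.8%. Probe sets of 1 gene are counted separately here and share their transcript.

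**Figure D3:**
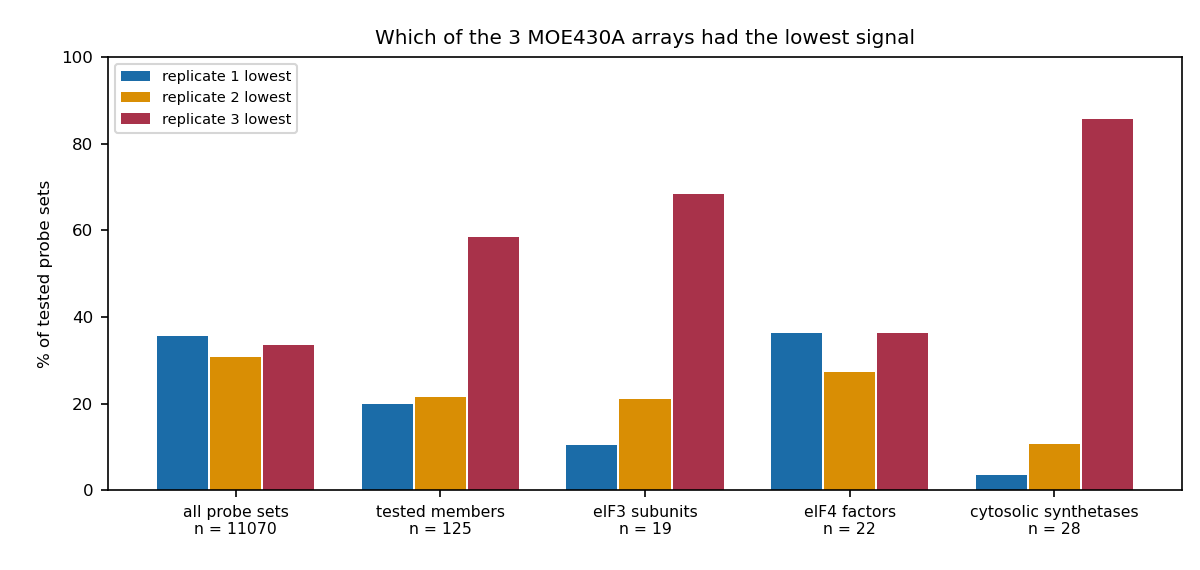
Share of tested MOE430A probe sets (vertical axis, percent) for which each replicate was the lowest of the 3 arrays, for all probe sets, the members, eIF3, eIF4 and the cytosolic synthetases. Replicate 3 was the lowest for 58.4% of members, 85.7% of cytosolic synthetase probe sets and 33.6% of all tested probe sets.

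The cytosolic synthetases were the role with the most tested probe sets, and 25 of their 28 were higher in replicate 1, with a median of 0.22 and a range from -0.16 to 0.82. Replicate 3 was the lowest for 24 of the 28 (85.7%) and the highest for 0. The median of replicate 1 minus replicate 2 was 0.15, that of replicate 1 minus replicate 3 was 0.40, and that of replicate 2 minus replicate 3 was 0.28. With only the brightest probe set of each gene, 16 of 16 were higher in replicate 1, although only 11 of the 16 were higher than in replicate 2. Without probe sets whose names mark possible cross-hybridization, 19 of 20 were higher. The 6 tested mitochondrial probe sets had a median of -0.17, with 2 higher, and 6 of 13 were higher without the filter on low signals. On MOE430B the 9 tested mitochondrial probe sets had a median of -0.33, with 2 higher. With the brightest probe set of each gene, 0 of 6 were higher there, with a median of -0.37, and replicate 1 was the lowest for 5.

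**Figure D4:**
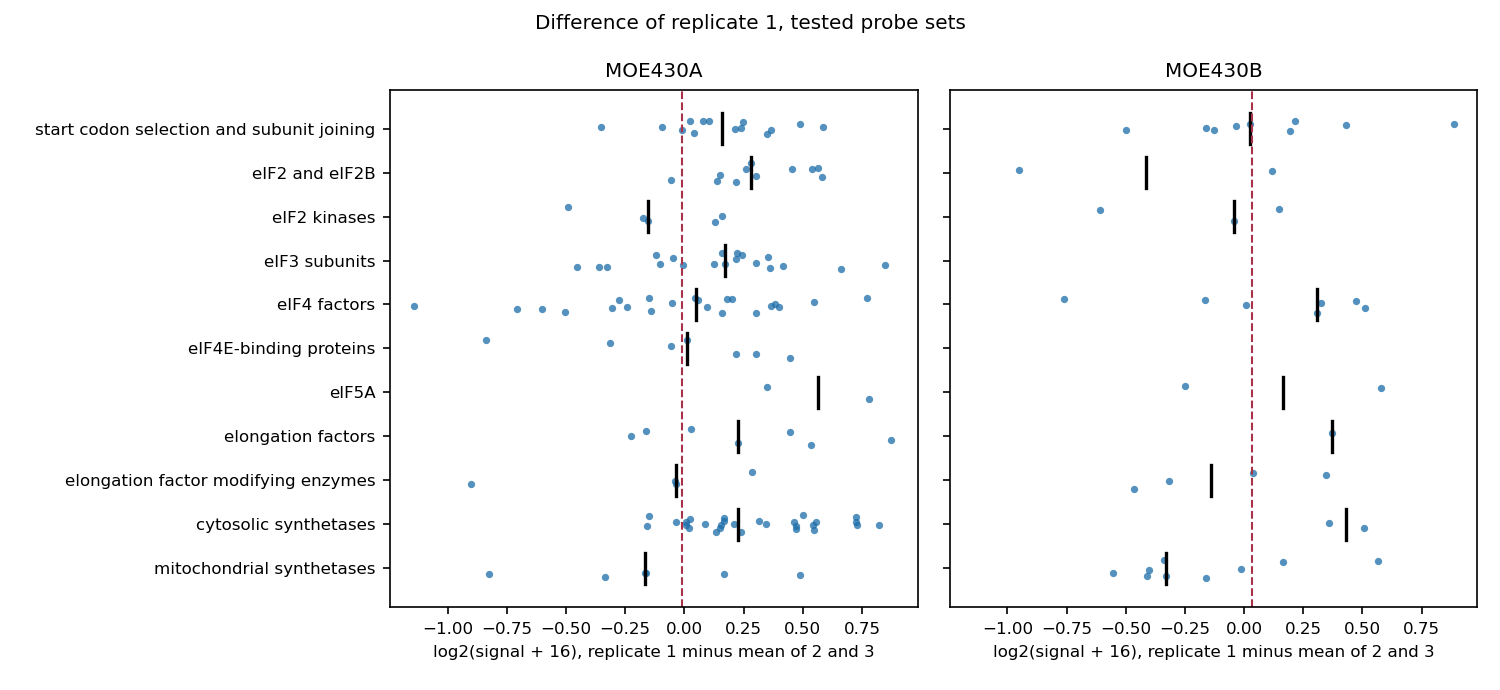
Log2 difference of replicate 1 from the mean of replicates 2 and 3 (horizontal axis) for each tested member probe set (points), by role and array type, with the median of each role as a black bar and the median of all tested probe sets as a dashed line. The cytosolic synthetases on MOE430A lie mostly above 0, with a median of 0.22, and the eIF2 kinases have a median of -0.16.

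Other roles on MOE430A gave medians of 0.56 for eIF5A (2 of 2 higher), 0.28 for eIF2 and eIF2B (10 of 11 higher), 0.22 for elongation factors (5 of 7), 0.17 for eIF3 (12 of 19) and 0.16 for start codon factors (11 of 14). The eIF4 factors had 0.05 (12 of 22), the 4E-binding proteins 0.01 (4 of 7), the modifying enzymes -0.04 (1 of 4) and the eIF2 kinases -0.16 (2 of 5). For eIF3 the median of replicate 1 minus replicate 2 was -0.13 and that of replicate 1 minus replicate 3 was 0.38, so replicate 1 was not the highest array there. On MOE430B the members had a median of 0.01 beside 0.03 over all tested probe sets, and 20 of 39 were higher in replicate 1 beside 52.6%. Replicate 1 exceeded replicate 2 for 20 of 39, beside 50.7%, and replicate 3 for 22 of 39, beside 51.1%, while replicate 2 exceeded replicate 3 for 26 of 39, beside 51.3%. The lowest array was replicate 3 for 17 of 39, beside 34.5%, replicate 1 for 14, beside 33.9%, and replicate 2 for 8, beside 31.6%.

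Recorded and measured features of the arrays are set beside these orders. On MOE430A replicate 3 was scanned on another day and passed through another fluidics station than replicates 1 and 2, so day, station and replicate 3 cannot be told apart. On MOE430B all 3 arrays shared a scan day, and replicate 1 alone used the other station. The ratio of 3′ to 5′ signal of the Gapdh control was 1.27, 1.16 and 0.846 on MOE430A in replicates 1, 2 and 3, and 1.32, 1.24 and 0.802 on MOE430B, lowest in replicate 3 on both. That of beta-actin was lowest in replicate 1 on both, with 1.05, 1.17 and 1.09 on MOE430A. On MOE430B it was 1.02, 1.33 and 1.10. Of the fibroblast markers on MOE430A, 4 of 15 tested probe sets were higher in replicate 1, with a median difference of -0.32. Col1a1, a collagen, gave 80483, 107005 and 133057, lowest in replicate 1, whereas the surface protein Thy1 gave 38911, 35603 and 16217 and the filament protein Vim gave 164029, 130581 and 153518, both highest in replicate 1. The part of these in the orders of the translation genes was not tested.

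Agreement between probe sets of 1 gene was partial. Of 32 genes with at least 2 tested probe sets on MOE430A, 16 had all of them on the same side of 0 and 16 had both signs. Of 15 genes tested on both array types, 10 had medians of the same sign on both and 5 (Eif1ax, Eif2ak2, Eif2b5, Eif4e2 and Eif4g3) did not. The replicate spread of members was close to that of the arrays as a whole. The median SD on the log2 scale was 0.25 over 118 member probe sets on MOE430A beside 0.24 over all above the floor, and 0.25 over 37 on MOE430B beside 0.28. The cytosolic synthetases had 0.31 over 27 probe sets on MOE430A. That fell to 0.23 with only the brightest probe set of each gene. Without probe sets whose names mark possible cross-hybridization it was 0.27. The largest spread on MOE430B was an Eif5 probe set at 2961, 1994 and 5246, the brightest Eif4g3 probe set was also among the top 5 at 5425, 2996 and 5092, and the smallest was an Eef2k probe set at 2023, 1985 and 1951.

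Other genes of translation were taken from lists by function. Of the termination and recycling factors, 5 of 6 were above the floor. Etf1, which recognizes stop codons, gave 4235, 3501 and 3340.5, and Abce1, which splits the ribosome afterwards, gave 3575, 3034 and 2275. On MOE430A 8 of 9 of their tested probe sets were higher in replicate 1, with a median of 0.49. A list of synthetases and related proteins with other symbols, from the complex scaffolds Aimp1 and Aimp2 to the phenylalanine enzyme subunits Farsa and Farsb, had 6 of 9 genes above the floor by any probe set and 6 of 7 tested probe sets higher in replicate 1, with a median of 0.38. Aimp2 gave 4928, 4193 and 3416 and Aimp1 gave 3031, 3068 and 2557. The poly(A)-binding proteins and regulators of initiation had 11 of 13 above the floor and 5 of 14 higher, with a median of -0.07, and Pabpc1 gave 54164, 51462 and 47816 and Pabpc4 gave 6599, 8582 and 7579.6. Of the mitochondrial translation factors 6 of 8 were above the floor, with 2 of 6 higher on MOE430A. Tsfm gave 3394, 2518 and 3674 on MOE430B and Mrrf gave 2267, 2011 and 2245 on MOE430A. Of the genes of hypusine and diphthamide synthesis 4 of 9 were above the floor, with 3 of 4 higher on MOE430A. Dph3 gave 2901, 4705 and 2809 on MOE430B and Dohh, which completes hypusine, gave 2061, 2128 and 2062 on MOE430A. By limma 0 probe sets of these lists passed on either array type.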

How the data were processed

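Total RNA of DR4 fibroblasts was labelled with biotin and read on MOE430A and MOE430B arrays, 3 replicates each. The authors deposited linear MAS5 intensities, per the submitters' processing notes, which give MAS5 no version or settings. Instrument records gave scan day and station only. GEO's annotation of the platforms, possibly outdated, gave a single symbol for 20380 probe sets of MOE430A and 14661 of MOE430B, several for 691 and 245, and none for 1555 and 7605. Leaving out 64 controls per type, log2(signal + 16) was fitted with limma 3.58.1 (lmFit, eBayes) in R 4.3.3, separately by array type, with p-values adjusted over all tested probe sets. Differences are on that scale, which understates those of low signals. On simulated data with planted changes, only the mean estimated change was checked. Each simulated probe set varied equally on all arrays, so the assumption about replicate 1 was not tested there. A gene's value is that of its brightest MOE430A probe set, or of its brightest MOE430B one if MOE430A has none.

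The members and lists were chosen with earlier results of these data known. All members may be named. Values are given for the 4 brightest per role, the 5 largest differences in each direction and the 5 largest spreads per array type, examples of genes below the floor, paralog pairs and the 2 brightest of other lists; some further members were chosen for their known roles after their values were seen. The number of arrays limits the precision. Alternatives were pseudocount, filter, floor, quantile normalization, eBayes trend, choice of probe sets and leaving out a replicate.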

Additional observations from a re-analysis of the deposited data

How the results depend on the processing

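No paired analysis was possible because replicate 1 was compared with replicates 2 and 3 within an array type, so the groups shared no replicate number. With a replicate left out, 118 to 122 member probe sets of MOE430A and 37 to 39 of MOE430B were above the floor, with median replicate SDs of 0.16 to 0.23 and 0.17 to 0.23. The median difference of replicate 1 on MOE430A was 0.28 without replicate 2 and 0.02 without replicate 3, and on MOE430B it was 0.07 and 0.00. Of the cytosolic synthetase probe sets, 27 of 28 on MOE430A were higher in replicate 1 without replicate 2 and 19 of 28 without replicate 3, and 2 of 2 on MOE430B in both cases. For mitochondrial ones the counts were 2 of 6 and 2 of 4 on MOE430A and 3 of 11 and 3 of 11 on MOE430B. Leaving out a replicate leaves no residual degree of freedom, so limma's calls were not repeated there, and replicate 1 itself cannot be left out of its contrast. With only the brightest probe set of each gene, 66 of 74 were above the floor on MOE430A, beside 6183 of 12393 over all named genes there. The count fell because fewer probe sets were counted, and dimmer probe sets of the same genes were the ones dropped. Without the filter on low signals, mitochondrial synthetase probe sets higher in replicate 1 numbered 6 of 13 on MOE430A and 10 of 19 on MOE430B. With the 75th percentile as the filter they numbered 1 of 5 on MOE430B, and none were left on MOE430A. The filter decides how many of these dim probe sets are counted. Members called by limma numbered 0 under each pseudocount, filter, normalization and trend setting, while calls over all MOE430A probe sets were 78 in the main setting, 0 without the filter, 0 after quantile normalization and 165 with the trend option. The number of arrays and signals near the floor limit the precision.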

Other observations

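A few translation factors were measured only by probe sets whose annotation joins their symbol to another gene, and their values cannot be assigned to a single gene. A probe set annotated to Eef1g, a subunit of the eEF1A exchange factor, and Gm29753 gave 42106, 40577 and 28289 on MOE430A in replicates 1, 2 and 3. The brightest annotated to Eif3j1 and Eif3j2, the loosely bound subunits of eIF3, gave 4257, 2528 and 2172. Replicate 3 was the lowest for both.

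Some probe sets are present on both array types and were read from the same RNA. The Wars probe set among them gave 2101, 2069 and 1723 on MOE430A and 9974, 7848 and 6272 on MOE430B, 4.09-fold higher on MOE430B. An Eif5 probe set gave 6903, 7124 and 6334 on MOE430A and 25357, 21047 and 23319 on MOE430B, 3.42-fold higher. Over all 100 shared probe sets the median was 3.87-fold, from 2.74 to 5.01. Replicate 1 was the highest for Wars on both types. The order for Eif5 differed between types: replicate 2 was the highest and replicate 3 the lowest on MOE430A. On MOE430B replicate 1 was the highest for Eif5 and replicate 2 the lowest.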
